A study of Mus musculus with 19 samples.

Results

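The genes described are the 7 subunit genes of the NMDA receptor (Grin1, Grin2a, Grin2b, Grin2c, Grin2d, Grin3a and Grin3b) and Grina, chosen by symbol. They are 8 of the 50559 genes of the count table, and all 8 passed the filter on low counts. Their mRNA was measured on ribosomes of cholinergic neurons, collected every 4 h over the day by RiboTag, in which Cre recombinase puts a hemagglutinin tag on a ribosomal protein so that tagged ribosomes and their mRNA can be precipitated from tissue. All animals were 10-week-old male C57BL/6J mice, labelled wild-type and carrying ChAT-Cre and 1 RiboTag allele (ChAT-Cre;RiboTag fx/+), kept in 12 h of light and 12 h of dark with no drug given. The groups were Zeitgeber times (hours after lights on) ZT0, ZT4, ZT8, ZT12, ZT16 and ZT20, with 3 biological replicates each, which made 18 immunoprecipitates. A single pooled input served as reference. The labels give its source as cholinergic neurons, whereas by the study's methods input is spinal cord homogenate taken before precipitation. Cre under the choline acetyltransferase gene tags motor neurons of every class together with other cholinergic cells of the cord, so the values are averages over these classes.

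The NMDA receptor is a glutamate-gated channel of 4 subunits that passes calcium when glutamate and a co-agonist are bound and depolarization has lifted its magnesium block. GluN1, from Grin1, is obligatory and binds the co-agonists glycine or D-serine. The GluN2 subunits, from Grin2a to Grin2d, bind glutamate and set how long the channel stays open and how strongly magnesium blocks it. The GluN3 subunits, from Grin3a and Grin3b, bind glycine and lower calcium entry and magnesium block. Motor neurons receive glutamate from descending axons, sensory afferents and interneurons. Grina carries the receptor's name from early work on a glutamate-binding protein, but belongs to the TMBIM family of membrane proteins that act in calcium balance and cell death, and forms no channel with the subunits.

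A coding stretch of 27 bases can be compared among subunit genes. It encodes a well conserved motif at the outer end of the third membrane segment, where that segment forms the gate of the channel. It is shown for 5 of the subunit genes (GENCODE M21, GRCm38/mm10) and was not found in the transcript of Grina. Capitals mark bases that differ from Grin1.
Grin1: tcctacactgccaacctggcagccttc
Grin2a: AGTtacacAgccaacctggcTgccttc
Grin2c: AGctacacGgccaaTctggcagccttc
Grin3a: AcAtacacAgcGaacTtggcTgcTGtc
Grin3b: AGTtacacAgccaacctggcagcTGtc
The stretch lies in exon 15 of 21 of Grin1 (chr2:25297199-25297225, minus strand), exon 10 of 14 of Grin2a (chr16:9653447-9653473, minus) and exon 9 of 13 of Grin2c (chr11:115253749-115253775, minus). It lies in exon 3 of 9 of Grin3a (chr4:49770470-49770496, minus) and exon 3 of 9 of Grin3b (chr10:79974636-79974662, plus). Grin2c differed from Grin1 at 4 of these bases, Grin2a at 5, Grin3b at 6 and Grin3a at 8. The stretch was located by searching the encoded protein for S or T followed by YTANLA, so likeness over those amino acids was set by the search. In Grin2a and Grin2c all encoded amino acids are the same as in Grin1, so the stretch does not separate these GluN2 subunits from GluN1. Both GluN3 genes share the change to capital TG near the end, which neither Grin2a nor Grin2c has. Grina lies at chr15:76246764-76249904 on the plus strand.

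RefSeq promoters (GRCm38.p6) matched 4 of the 8 genes, Grin1, Grin2c, Grin2d and Grin3b. That of Grin1 is shown because the mRNA of Grin1 differed among time points. Its 250 bases before the start site, chr2:25319188-25319437 on the minus strand, hold 2 matches to CACGTG, the E-box motif bound by CLOCK and BMAL1 among other factors, marked in capitals.
Grin1 promoter: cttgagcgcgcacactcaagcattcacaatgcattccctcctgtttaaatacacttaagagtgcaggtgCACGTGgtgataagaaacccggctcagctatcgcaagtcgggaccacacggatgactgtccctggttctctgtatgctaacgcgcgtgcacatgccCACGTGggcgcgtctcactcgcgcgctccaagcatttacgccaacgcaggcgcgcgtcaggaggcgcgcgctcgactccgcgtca
The motif reads the same on both strands. At least 1 match was present in 6.02% of 32851 promoters of this length and at least 2 in 0.429%, and the other 3 promoters hold none. The search covered 3 further motifs on both strands: AGGTCA, the half-site of REV-ERB and ROR (in 14.0% of promoters), the GC box GGGCGG (32.7%) and the cyclic AMP response element TGACGTCA (1.55%). The promoter of Grin2c, a gene that passed no test over the day, holds 1 half-site and 3 GC boxes, overlapping matches counted, and those of Grin1, Grin2d and Grin3b hold none of these 3 motifs. A match describes letters only, and binding was not measured. Grina, the other gene that differed among time points, had no matched promoter. A link between the motif and the time course was not tested.

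Total counts ran from 6302140 to 22406850 in the immunoprecipitates and came to 15239783 in the input. Of the members, Grin2c had the lowest counts, 54 to 218 in an immunoprecipitate, and Grina the highest, 5952 to 26805. By mean, all 7 cholinergic markers lay above the input, with a summed level of 4258 to 5081 CPM (counts scaled to the same library size, per 1000000) against 449 CPM. The 7 oligodendrocyte markers lay below it, with 1525 to 2908 CPM against 21282 CPM, and so did all listed markers of astrocytes, microglia, inhibitory and excitatory neurons, endothelial cells and erythrocytes. Chat itself, the gene that drives the Cre, varied from 8.39 to 86.6 CPM among the immunoprecipitates, against 12.7 CPM in the input.

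Grina and Grin1 were the most abundant members per length, and Grin3b came next in the immunoprecipitates. Levels between genes were compared as CPM per kilobase of all merged exons, with the coding length as the alternative. Lengths are those of GENCODE M21, and the annotation behind the counts is uncertain, so the levels per length carry that doubt. Per kilobase of merged exons, Grina stood at 531 ± 95.7 CPM (SD, n = 18 here and for the other members). Grin1 stood at 44.1 ± 9.96 and Grin3b at 29.3 ± 3.97 CPM per kilobase, and their ranges over the libraries overlapped. The lowest library of Grin3b, at 23.3 CPM per kilobase, was above every library of the genes that follow.

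Grin2d (3.89 ± 1.07 CPM per kilobase of merged exons), Grin3a (3.49 ± 0.277) and Grin2a (3.45 ± 0.368) came next, with overlapping ranges. Grin2b (2.15 ± 0.187) and Grin2c (1.92 ± 0.384) were lowest and overlapped with each other and with Grin2d, but not with Grin3a or Grin2a. Per coding length, Grina, Grin1 and Grin3b kept their order, at 1060 ± 191, 145 ± 32.8 and 31.9 ± 4.31 CPM per kilobase, and their ranges did not overlap. The rest were then ordered as Grin2a (14.1 ± 1.5 CPM per kilobase), Grin3a (12.6 ± 0.999), Grin2b (12.0 ± 1.04), Grin2d (6.52 ± 1.80) and Grin2c (2.60 ± 0.520). Grin2a and Grin2b have long untranslated exons (17933 and 24842 merged bases against 4392 and 4447 coding bases), so the place of the GluN2 genes depends on the length used. In Grin2a, 2079 of 17972 windows of 50 exon bases also occur in other genes, Gm7328 among them.

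**Figure D1:**
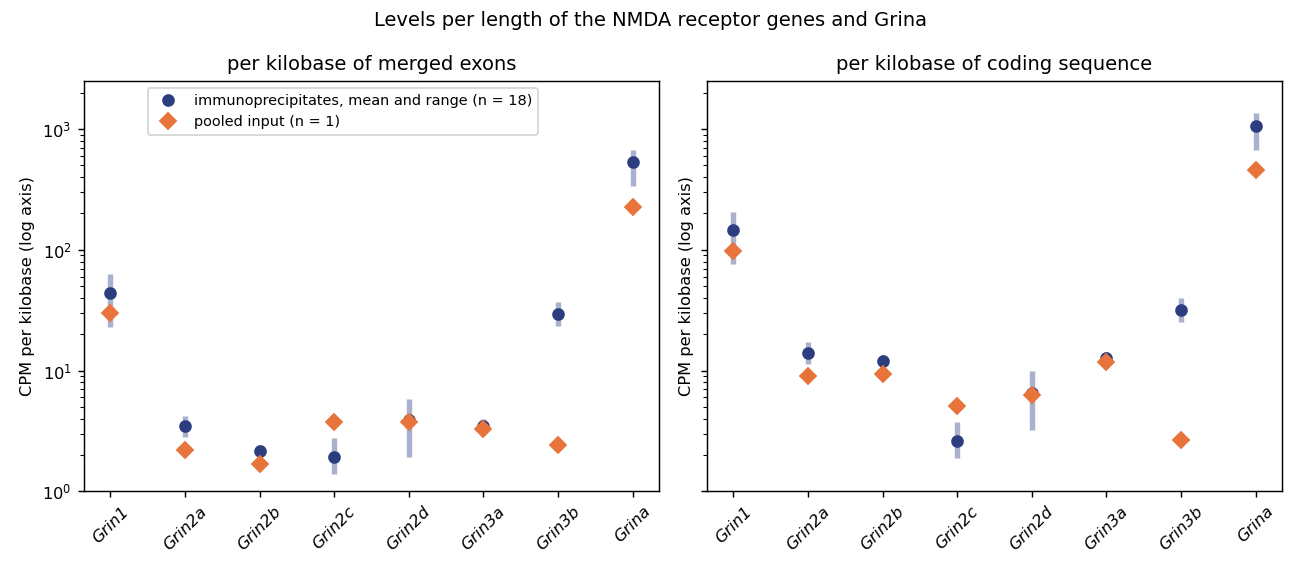
Level of each gene as CPM per kilobase on a log axis, per merged exon length (left) and per coding length (right). Circles are means of the 18 immunoprecipitates with bars from the lowest to the highest library, and diamonds are the pooled input. Grina and Grin1 lead in both panels, and Grin3b is the gene whose circle and diamond are farthest apart (29.3 against 2.42 CPM per kilobase of merged exons).

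The comparison with the input asks which of these mRNAs were over-represented on ribosomes of cholinergic cells relative to the homogenate. Grin3b stood out, at 12.1-fold the input, and Grina was 2.33-fold the input. Both counted as enriched (at least 2-fold, with all 18 immunoprecipitates above the input), 2 of 8 members, where 13.8% of the 17901 genes compared were enriched and 23.0% depleted. With 1 input library there is no test, and intervals cover counting error of the input only.

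Grin3b, the glycine-binding subunit gene known for its expression in motor neurons, had 151 counts in the input, or 7.99 CPM (exact 95% Poisson interval 6.76 to 9.37). The immunoprecipitates held 96.7 ± 13.1 CPM (SD, n = 18), from 76.7 to 121, so that every library was more than the upper bound of the input. Its ratio ranked 75 from the top of all genes compared. Exons of Grin3b share 1059 of 3296 bases with exons of Tmem259 on the opposite strand, and the strand setting of the counting is not given in the sources used here. Tmem259 itself was at 96.0 CPM in the input and at 202 ± 20.2 CPM (SD, n = 18) after precipitation, a ratio of 2.11. Opposite-strand overlap also concerns Grin1, with 1307 of 9700 exon bases shared with Grin1os. For Grin2d, 643 of 6658 exon bases are shared with Gm45441. The part of such overlaps in the counts was not tested.

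Grina went from 470 CPM in the input to 1097 ± 198 CPM after precipitation, with the lowest library at 697. The obligatory subunit gene Grin1 was at 289 CPM in the input (281 to 297) and at 427 ± 96.6 CPM after precipitation, from 223 to 609. That is a ratio of 1.48, and 17 of the 18 libraries lay above the input. Grin2a, at 61.9 ± 6.59 against 39.7 CPM, and Grin2b, at 53.4 ± 4.64 against 41.5 CPM, had ratios of 1.56 and 1.29, with all 18 libraries above the input.

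Grin3a (42.9 ± 3.40 against 39.9 CPM) and Grin2d (25.9 ± 7.14 against 24.9 CPM) were near the input, with 14 and 11 libraries above it, and their log2 ratios were 0.11 and 0.05. The ratio of Grin3a turns to -0.22 with library totals as scaling, and that of Grin2d is below 0 with all 3 other scalings (-0.01 with DESeq2 size factors, -0.05 with the upper quartile and -0.27 with library totals). Grin2c, the subunit gene known best from cerebellar granule cells and glia, was lower: 9.66 ± 1.93 CPM against 18.7 CPM (16.8 to 20.8), with no library above the input and a log2 ratio of -0.96. It missed the 2-fold limit, but passed it with each of the other 3 scalings (-1.02 to -1.28). Library totals lowered the median log2 ratio of all genes by 0.33 relative to the scaling used here, and under them Grina, at 0.89, no longer passed.

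**Figure D2:**
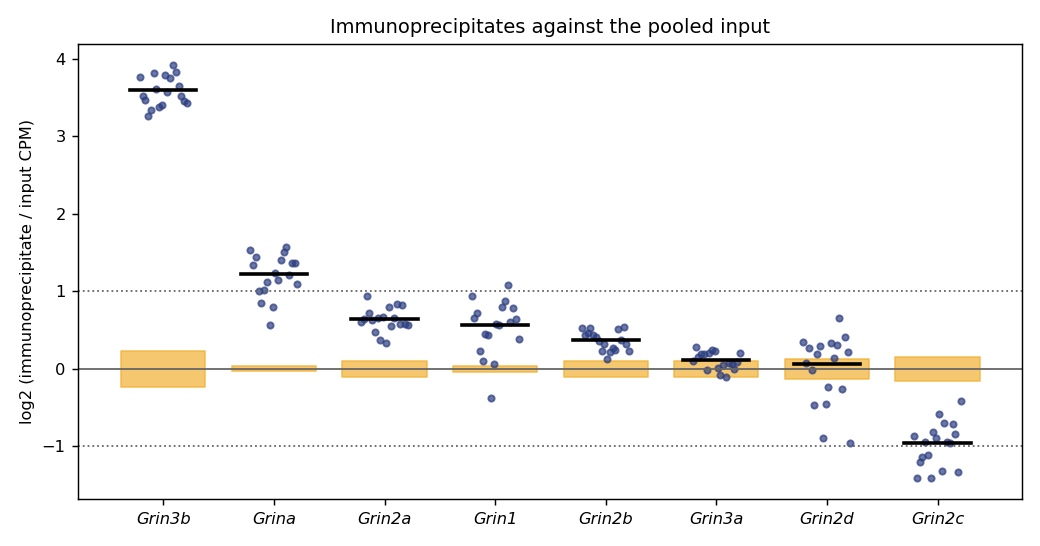
Log2 ratio of each of the 18 immunoprecipitates (points) to the pooled input for each gene, ordered by the ratio of mean CPM (bar). Shaded boxes are the exact 95% Poisson interval of the input and dotted lines mark 2-fold. Grin3b stands at 3.60 and Grina at 1.22, and all points of Grin2c lie below 0.

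The makeup of the families differed from the input in the same way. Per merged exon length, Grin3b made up 89.2 ± 1.87% of the GluN3 mRNA in the immunoprecipitates (SD, n = 18, from 86.3% to 92.4%) and 42.7% in the input. Within the GluN2 family, Grin2d made up 33.5 ± 6.44%, Grin2a 30.4 ± 2.36%, Grin2b 18.96 ± 1.73% and Grin2c 17.1 ± 4.64%. In the input these shares were 33.0%, 19.5%, 14.7% and 32.8%, so that Grin2c held a larger share there than in any immunoprecipitate. Per coding length the GluN2 shares came to 40.0% for Grin2a, 34.2% for Grin2b, 18.3% for Grin2d and 7.50% for Grin2c. The share of Grin3b was 71.4% by that length, against 18.4% in the input.

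**Figure D3:**
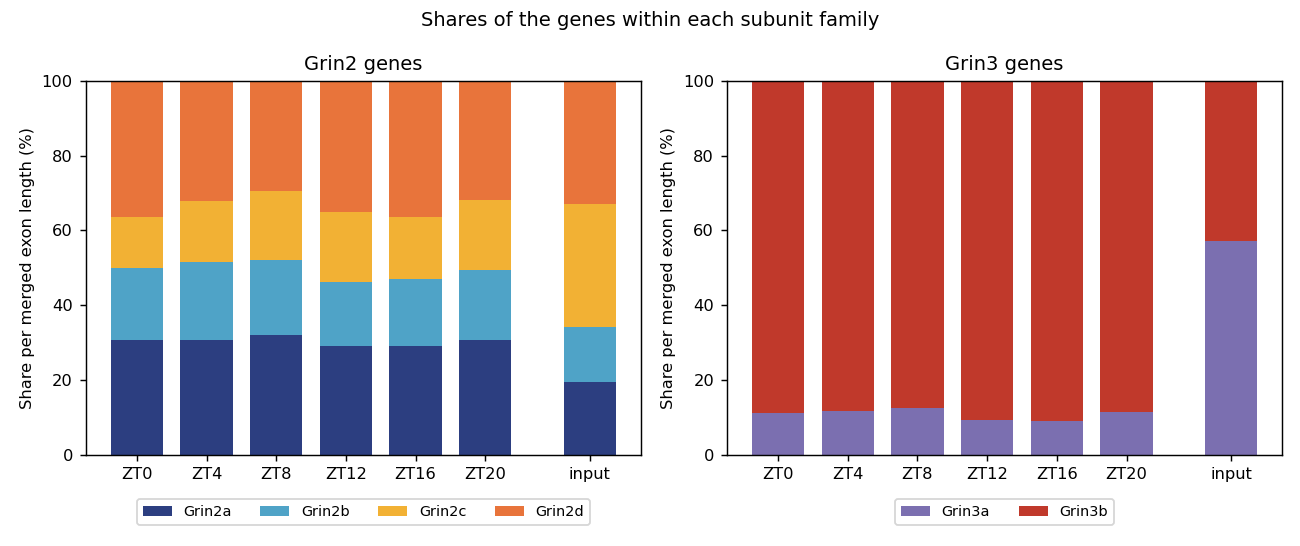
Share (%) of each gene in the GluN2 family (left) and the GluN3 family (right), as mean CPM per merged exon length of 3 animals at each Zeitgeber time and in the pooled input. Bars within a panel sum to all genes of the family. Grin3b holds 87.5% to 91.1% of the GluN3 bars of the immunoprecipitates and 42.7% of that of the input.

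The time course asks whether the receptor genes differ over the day. Grin1 and Grina did, with a trough at ZT8 in the light and the highest means at ZT16 in the dark, or at ZT0 and ZT16 alike for Grina. No Grin2 or Grin3 gene passed a test across the time points or between a pair of them with the filter used here and all libraries. Under other settings, described with their values, Grin2d and Grin3b passed between pairs. In the light, Grin1 stood at 544, 450 and 462 CPM in the animals of ZT0, 334, 304 and 388 CPM in those of ZT4, and 386, 220 and 298 CPM in those of ZT8. From lights off, the ZT12 animals held 426, 425 and 496 CPM, the ZT16 animals 525, 597 and 432 CPM, and the ZT20 animals 495, 445 and 372 CPM. The 3 libraries of ZT8 were all below the 3 of ZT0, of ZT12 and of ZT16, whereas ZT4 and ZT20 overlapped with ZT8. The mean of ZT16 was 1.72 times that of ZT8.

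Grina, with 5952 or more counts per library, stood at 1342, 1184 and 1238 CPM in the ZT0 animals, 932, 840 and 938 CPM in the ZT4 animals, and 1011, 690 and 811 CPM in the ZT8 animals. The ZT12 animals held 1091, 1033 and 1236 CPM, the ZT16 animals 1317, 1368 and 1079 CPM, and the ZT20 animals 1207, 1195 and 998.6 CPM. Here too the ZT8 libraries lay below all libraries of ZT0, ZT12 and ZT16, while all of ZT4 and 1 library of ZT20 were within their range. The means at ZT0 and ZT16 were 1255 ± 79.9 and 1255 ± 154 CPM (SD, n = 3).

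**Figure D4:**
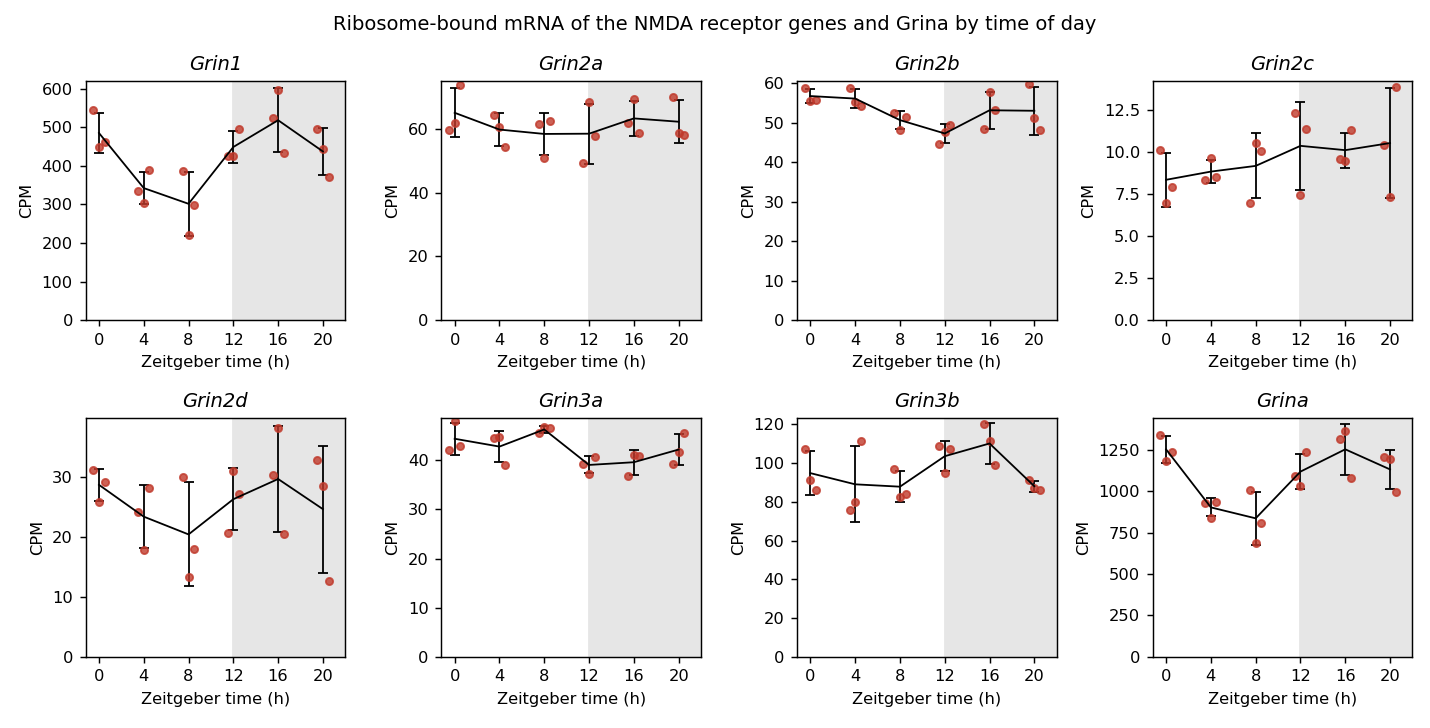
CPM of each gene by Zeitgeber time (h), each axis starting at 0. Points are libraries, the line and bars are mean and SD of 3 animals, and grey marks the dark period. Grin1 and Grina fall to 302 and 838 CPM at ZT8 and reach 518 and 1255 CPM at ZT16, while Grin2a stays between means of 58.4 and 65.0 CPM.

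A 24-h cosine curve fitted by edgeR's quasi-likelihood method passed for Grin1 and Grina, 2 of 8 members, where 6.24% of 15572 genes passed (2.91% with a peak in the dark). The amplitude, from the middle of the curve to its peak, was 0.33 on the log2 scale for Grin1 (SE 0.08, adjusted p = 0.0433), with a peak at ZT18.3. For Grina it was 0.27 (SE 0.06, adjusted p = 0.0410), with a peak at ZT18.7. Any difference among the 6 time points passed for the same genes (edgeR, adjusted p = 0.0303 for Grin1 and 0.0263 for Grina, 6.74% of genes). The rank test JTK_Cycle called 0.0385% of genes rhythmic across genes, 6 in all, and no member. Grin1 and Grina both had an adjusted p of 0.114 in JTK_Cycle, with a best period of 20 h, the shortest of those searched. A single day sampled every 4 h cannot resolve the period. Both genes passed in JTK_Cycle when p was adjusted within the gene alone (0.00512, as did 15.8% of genes).

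These calls rest on narrow margins. The test among time points called neither gene without ZT0 replicate 1 or 3, ZT4 replicate 2, ZT8 replicate 2 or 3, or ZT16 replicate 1 (0 members), and 1 of them without ZT16 replicate 2. In the cosinor, leaving out any of 12 single libraries took Grin1 past 0.05 (edgeR, adjusted p up to 0.125, without ZT8 replicate 3), and the call stayed only without ZT0 replicate 1, ZT8 replicate 1, ZT12 replicate 3, ZT16 replicate 3, ZT20 replicate 2 or ZT20 replicate 3. Grina lost the call without any of 10 libraries (adjusted p up to 0.123) and kept it without these 6, without ZT4 replicate 1 or without ZT12 replicate 2. The amplitude stayed between 0.27 and 0.39 for Grin1 and between 0.23 and 0.32 for Grina.

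Of the 15 pairs of time points, 2 held a member that passed, and both include ZT8. From ZT0 to ZT8, Grin1 changed by -0.69 on the log2 scale (SE 0.16, edgeR adjusted p = 0.00971) and Grina by -0.58 (SE 0.12, adjusted p = 0.00713), where 18.0% of genes passed and 9.02% were lower. From ZT8 to ZT16, Grin1 changed by 0.78 (SE 0.16, adjusted p = 0.00785) and Grina by 0.58 (SE 0.12, adjusted p = 0.00814), where 16.9% of genes passed and 9.11% were higher. The pairs share the ZT8 libraries, so they are not independent of each other. Between ZT4 and ZT16 the changes of 0.60 for Grin1 and 0.47 for Grina did not pass (edgeR adjusted p = 0.0929 and 0.0868).

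The library ZT8 replicate 2 held the lowest value of both genes, and without it neither pair passed for either. The ZT0 to ZT8 changes were then -0.51 for Grin1 and -0.47 for Grina (edgeR adjusted p = 0.0714 and 0.0556), and the ZT8 to ZT16 changes 0.61 and 0.47 (0.0587 and 0.0626). Without ZT16 replicate 2, the highest library of both, the ZT8 to ZT16 changes were 0.67 and 0.52 (adjusted p = 0.0552 for both). Without ZT0 replicate 1, Grin1 missed the threshold from ZT0 to ZT8 (-0.60, adjusted p = 0.0582). With the cholinergic marker score described next in the model, the ZT0 to ZT8 changes were -0.15 for Grin1 and -0.17 for Grina (edgeR adjusted p = 0.919 and 0.844), and the ZT8 to ZT16 changes 0.22 and 0.15 (0.801 and 0.807). A score of the oligodendrocyte markers in its place gave ZT0 to ZT8 changes of -0.64 and -0.58 (edgeR adjusted p = 0.0284 and 0.0210). The ZT8 to ZT16 changes were then 0.71 and 0.58 (edgeR adjusted p = 0.0521 and 0.0496).

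Most, but not all, markers of the labelled cells moved with Grin1 and Grina. A cholinergic score, the mean centred log2 CPM of Chat, Slc5a7, Slc18a3, Ache, Isl1, Mnx1 and Prph, was -0.37 ± 0.32 at ZT8, 0.22 ± 0.09 at ZT0 and 0.24 ± 0.27 at ZT16 (SD, n = 3), lowest in ZT8 replicate 2 (-0.71) and highest in ZT16 replicate 2 (0.44). Chat, the acetylcholine-synthesizing enzyme, held 16.9 ± 7.71 CPM at ZT8 and 57.0 ± 29.7 CPM at ZT16. Slc18a3, the vesicular acetylcholine transporter, held 367 ± 152 and 708 ± 171 CPM. Of the 7 genes, 5 had lower means at ZT8 than at ZT0 and ZT16. The other two did not: Prph held 3188 ± 158 CPM at ZT8, 2552 ± 220 CPM at ZT0 and 2788 ± 409 CPM at ZT16, and Mnx1 28.7 ± 1.96, 26.8 ± 1.72 and 27.1 ± 3.12 CPM. Over the 18 libraries, log2 CPM correlated with the score at Pearson r = 0.95 for Grin1 (Spearman rho = 0.92) and r = 0.97 for Grina (rho = 0.92), as a description of points that share library and scaling. Without ZT8 replicate 2 and ZT16 replicate 2, the libraries farthest from the median score, r was 0.90 and 0.94. The summed CPM of the 7 genes, which Prph dominates, overlapped between these hours: 4273 to 4730 CPM at ZT8, 4415 to 4837 CPM at ZT0 and 4675 to 5081 CPM at ZT16. Lower values at ZT8 were not particular to cholinergic markers. Inhibitory neuron markers summed to 248 to 302 CPM at ZT8, 325 to 347 at ZT0 and 293 to 338 at ZT16. Astrocyte markers summed to 132.5 to 165.5 CPM at ZT8, 167.7 to 190.5 at ZT0 and 164.8 to 205.2 at ZT16. Mean sums of endothelial markers were slightly lower at ZT8 too. Those of excitatory neurons, microglia and erythrocytes were higher at ZT8 than at ZT0 and ZT16.

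The first principal component of the 18 immunoprecipitates held 52.8% of the variance. It correlated with Grin1 at r = -0.95 and with Grina at r = -0.97, and both were among the 9214 genes it was computed from. With the cholinergic score in the model, the cosinor amplitudes were 0.07 for Grin1 and 0.05 for Grina (edgeR adjusted p = 0.895 and 0.912). With the oligodendrocyte marker score they were 0.26 and 0.23 (adjusted p = 0.249 and 0.223). The 7 oligodendrocyte markers summed to 1748 to 2011 CPM at ZT8, 1831 to 2235 CPM at ZT0 and 1968 to 2908 CPM at ZT16, and no marker of either list was at 0 in any library. Fewer cells of a type and less RNA per cell cannot be told apart in such libraries, and the part of either score in the result was not tested.

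**Figure D5:**
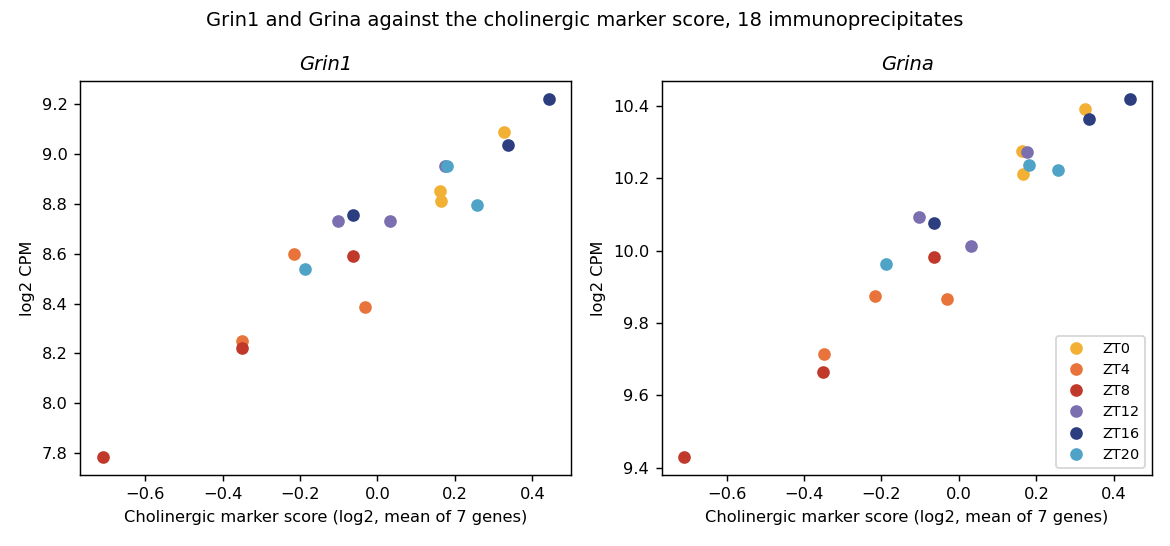
Log2 CPM of Grin1 (left) and Grina (right) against the cholinergic marker score (log2, centred) in the 18 immunoprecipitates, coloured by Zeitgeber time. Both genes follow the score (r = 0.95 and 0.97), with ZT8 replicate 2 at the lower left at a score of -0.71 and ZT16 replicate 2 at the upper right at 0.44.

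Among the GluN2 genes, which bind glutamate, no difference over the day passed. Grin2b stood at 58.8, 55.5 and 55.7 CPM in the ZT0 animals, 58.7, 55.2 and 54.2 CPM in the ZT4 animals, and 52.4, 48.1 and 51.3 CPM in the ZT8 animals. The ZT12 animals held 44.7, 47.6 and 49.4 CPM, the ZT16 animals 48.3, 57.8 and 53.1 CPM, and the ZT20 animals 59.7, 51.1 and 48.1 CPM. All ZT12 libraries were below all of ZT0 and ZT4, yet its cosine curve, with an amplitude of 0.11 (SE 0.04) and a peak at ZT0.14, did not pass across genes (edgeR adjusted p = 0.187, unadjusted 0.0498). In JTK_Cycle its p adjusted within the gene was 0.0533.

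Grin2a ranged from 49.4 to 73.8 CPM with a median of 61.1 over the 18 libraries, and its time point means spanned a ratio of 1.11, the smallest of the 8 genes. Its amplitude was 0.07 (SE 0.05, edgeR adjusted p = 0.614). Grin2d ranged from 12.7 to 38.3 CPM (median 27.7) and was the most variable member, with a coefficient of variation of 27.4%. Its lowest and highest means, 20.5 ± 8.68 CPM at ZT8 and 29.7 ± 8.90 CPM at ZT16 (SD, n = 3), were at the same hours as those of Grin1, but the libraries overlapped and the change of 0.55 (SE 0.30) did not pass (edgeR adjusted p = 0.229). Without ZT8 replicate 1, which held 30.1 CPM, it was 0.95 and passed (adjusted p = 0.0289), as did the change from ZT0 to ZT8 (-0.90, adjusted p = 0.0360). With the filter of at least 1 count in place of the one used here, the changes of 0.56 and -0.51 passed as well (adjusted p = 0.00867 and 0.0215). Grin2c ranged from 6.94 to 13.8 CPM (median 9.59), with an amplitude of 0.15 (SE 0.09, edgeR adjusted p = 0.526).

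Of the GluN3 genes, Grin3a was highest where Grin1 was lowest. Its libraries gave 45.5, 46.8 and 46.6 CPM at ZT8, against 39.3, 37.2 and 40.7 at ZT12 and 36.7, 41.1 and 41.0 at ZT16. ZT8 did not overlap with either, but the change from ZT8 to ZT16 of -0.22 (SE 0.10) did not pass (edgeR adjusted p = 0.141), nor did the cosine curve (amplitude 0.09, SE 0.04, adjusted p = 0.324). Grin3b gave 97.0, 82.5 and 84.0 CPM at ZT8 and 120, 111 and 98.9 CPM at ZT16. These did not overlap, and the change of 0.33 (SE 0.13) did not pass (edgeR adjusted p = 0.0921). It passed without ZT8 replicate 1 (0.42, adjusted p = 0.0405), without ZT16 replicate 3 (0.41, adjusted p = 0.0489) and, with the change at 0.33, without ZT4 replicate 3 (adjusted p = 0.0403).

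The ratios of the other genes to Grin1 carry the ZT8 to ZT16 change of Grin1 itself (0.78), beside which Grin2a changed by 0.12 and Grin2b by 0.07. The log2 ratio of Grin3a to Grin1 counts lay between -3.08 and -2.24 at ZT8 and between -3.86 and -3.40 at ZT16. That of Grin2b lay between -2.88 and -2.20 at ZT8 and between -3.44 and -3.03 at ZT16, and that of Grin2a between -2.65 and -2.11 and between -3.11 and -2.88. That of Grin3b lay between -1.99 and -1.42 at ZT8 and between -2.42 and -2.13 at ZT16. None of these overlapped, whereas the ratios of Grin2d (-4.05 to -3.68 at ZT8 and -4.40 to -3.96 at ZT16) and Grin2c (-5.80 to -4.39 and -5.99 to -5.26) did. Grina relative to Grin1 varied least, with an SD of 0.10 over the 18 libraries against 0.26 to 0.47 for the other genes. These ratios are described without a test.

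Grin1 and Grina followed each other across libraries (r = 0.98, rho = 0.98, n = 18), and the genes most like them were shared in part. Of 9206 genes with a mean log2 CPM above 3, those with the highest Pearson r to Grin1 were Tubg1, Tubb5, Apbb1, Kcnab2 and Tln1 (r from 0.98 to 0.99). Tubg1 and Tubb5 encode tubulins, and Kcnab2 a beta subunit of voltage-gated potassium channels. For Grina they were Btbd2, Apbb1, Pld3, Kcnab2 and Slc18a3 (r from 0.98 to 0.99), the last of which is also a gene of the cholinergic score. For Grin2b the closest were Cog6, Necab1, Pou3f3, Map3k12 and Adal, with lower values (r from 0.75 to 0.81). All these points share libraries, depth and scaling. Grin1 and Grina both followed the first principal component (r = -0.95 and -0.97), which held 52.8% of the variance. How often other pairs of genes correlate as closely was not tested.

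Genes that work with the receptor were taken as 5 lists of 52 genes, all tested. The cosine curve passed for 6 of the 52 (11.5%, against 6.24% of all genes), 5 with a peak in the dark and 1 in the light (2.91% and 3.33% of all genes). These calls too rest on narrow margins: none of the 52 passed without replicate 2 or 3 of ZT0, ZT4 or ZT8. The same held without ZT12 replicate 1, ZT16 replicate 1 or 2, or ZT20 replicate 1. The median amplitude of the 52 was 0.14 on the log2 scale. Of 15 scaffold genes of the postsynaptic density, 2 passed. Dlg2, which encodes the anchoring protein PSD-93, went from 49.5 ± 8.51 CPM at ZT8 to 68.9 ± 6.97 CPM at ZT16 (amplitude 0.27, SE 0.06, edgeR adjusted p = 0.0388, peak at ZT20.0). Dlgap3, a linker between PSD-95 and Shank proteins, went from 21.5 ± 14.2 to 58.6 ± 18.6 CPM (amplitude 0.65, SE 0.16, adjusted p = 0.0434, peak at ZT18.8). Dlg4, which encodes PSD-95, and the Shank and Homer genes did not pass.

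Of 15 kinase, phosphatase and other signalling genes, 2 passed. Camk2g, a subunit of the calcium- and calmodulin-dependent kinase II, held 260 ± 39.3 CPM at ZT8 and 407 ± 69.0 CPM at ZT16 (amplitude 0.26, SE 0.06, edgeR adjusted p = 0.0434, peak at ZT18.2). Csnk2a1, the catalytic subunit of casein kinase 2, which phosphorylates the tail of GluN2B, went the other way, with 120 ± 19.01 CPM at ZT8 and 81.8 ± 7.46 CPM at ZT0 (amplitude 0.24, SE 0.06, adjusted p = 0.0426, peak at ZT7.1). Of 8 transport and sorting genes, Lin7a (amplitude 0.31, SE 0.07, adjusted p = 0.0415, peak at ZT20.6) and Gipc1 (0.36, SE 0.08, adjusted p = 0.0415, peak at ZT18.6) passed, both with their lowest mean at ZT8. None of the 9 genes of agonist and co-agonist supply or clearance and none of the 5 TMBIM genes other than Grina passed in edgeR (1 and 2 of them had an unadjusted p under 0.05). With the cholinergic score or the oligodendrocyte score in the model, none of the 52 passed.

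Against the input, 4 of the 52 partner genes were enriched and 16 depleted (7.69% and 30.8%, against 13.8% and 23.0% of all genes). The enriched ones were Lin7b, with a log2 ratio of 2.64, Cdk5 (1.13), and the TMBIM family genes Tmbim4 (1.13) and Ghitm (1.04). Among the depleted were 7 of 9 genes of agonist and co-agonist supply, with the glial glutamate transporters Slc1a2 (-4.07) and Slc1a3 (-5.08) and the glycine transporter Slc6a9 (-2.85), and the scaffold genes Shank2, Shank3, Homer2 and Homer3 (-2.11 to -1.61). Slc1a2, Slc1a3 and Slc6a5 of that list are also among the markers of astrocytes and inhibitory neurons. Camk2a, the kinase subunit gene typical of forebrain synapses, was at -2.29, whereas Camk2b, at 0.71, and Dlg4, at 0.59, counted as neither enriched nor depleted.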

How the data were processed

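Per the labels and the study's methods, reads of ribosome-bound poly(A) RNA (stranded kit) were aligned to mm10 with STAR 2.7.5 and quantified with RSEM. The authors deposited RSEM expected counts per gene without normalization. 1 of the 152 member values was not a whole number. All value columns were mapped to samples by name.

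Expected counts were rounded. Genes were kept by filterByExpr (15572 of 25601 with a count in an immunoprecipitate) and scaled by TMM in edgeR 4.0.16 (R 4.3.3), with a prior count of 2 for log2 CPM. The quasi-likelihood test of edgeR gave the 24-h cosinor, any difference among the 6 time points and 15 pairs, with Benjamini-Hochberg adjustment over all genes at 0.05. JTK_Cycle used periods of 20, 24 and 28 h (18 templates). The input and levels per length are on a scale of all 19 libraries (17901 genes), other values on that of the 18 immunoprecipitates. Lengths and coordinates are from GENCODE M21, whereas the study names an Ensembl annotation, so which annotation the counts rest on is uncertain. Totals of 6302140 to 22406850 set the precision, and reads carry no molecular identifiers, so intervals cover counting error only. The replicates are labelled biological.

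Members and lists were chosen with earlier results of these data known. Named were all members, partner genes past 0.05 in the cosinor and, for Grin1, Grin2b and Grina, the 5 genes of highest Pearson r. Partner genes named against the input were chosen after their values were seen. The scripts were tested on simulated data. Alternatives were other scalings (DESeq2 1.42.0 size factors, library totals, upper quartile), DESeq2 itself, filters of 1 and 10 counts, marker scores or the first principal component as covariate, a replicate block, and each library or replicate number left out. The coding stretch of some subunit genes is not reported here.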

Additional observations from a re-analysis of the deposited data

How the results depend on the processing

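The other scalings and the filter of at least 10 counts changed no count of member calls over the time course. Of 8 members, the cosinor and the test among time points each called 2, and with the oligodendrocyte score, the cholinergic score or the first principal component as covariate each called 0. Over the 15 pairs, 4 member calls became 12 with DESeq2 and 14 with the filter of at least 1 count. They became 3 with the oligodendrocyte score and 0 with the cholinergic score or the first principal component. All 12 DESeq2 calls were of Grin1 and Grina, whereas the 14 included Grin2d. The 6 partner calls became 10 with DESeq2 or the filter of at least 1 count, and 0 with each of the 3 covariates. JTK_Cycle called 0 members, and 2 with adjustment within the gene alone. Against the input, 2 members were enriched, and 1 with library totals. The share of Grin2a among GluN2 genes per length was 30.4%, and 40.0% by coding length.

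Leaving out a library or a replicate number gave 0 to 2 members in the cosinor, 0 to 2 among time points, 0 to 14 calls over the pairs, 0 to 12 partner genes and 0 to 2 members in JTK_Cycle (2 without ZT16 replicate 3). Over the pairs the 14 calls came without ZT8 replicate 1, 8 without ZT16 replicate 3, 2 without ZT8 replicate 2 or ZT16 replicate 2, and 0 without all libraries numbered 2. The 12 partner calls came without ZT20 replicate 3. The test among time points called 0 members without ZT0 replicate 1 or 3, ZT4 replicate 2, ZT8 replicate 2 or 3, or ZT16 replicate 1, and 1 without ZT16 replicate 2.

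Replicate numbers were not treated as pairs. Deviations of same-numbered libraries correlated at -0.52 to 0.59 (median 0.07), with 18 of 45 pairs above 0.1. Those of differently numbered libraries correlated at -0.55 to 0.53 (median -0.01), with 32 of 90 pairs above 0.1. The fit with the replicate block called 2 members in the cosinor, with adjusted p = 0.0478 for Grin1 and 0.0459 for Grina in edgeR. Low counts limit Grin2c, with 54 counts in its lowest library.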
